A study of Mus musculus with 6 samples.

Results

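The T cell receptor alpha and beta segments were taken as every gene whose name in the deposited files starts with Trav, Traj, Trac, Trbv, Trbd, Trbj or Trbc. The rule used names and no measured value. It found 242 of the 54446 genes in the files, which were 128 Trav, 60 Traj, 1 Trac, 35 Trbv, 2 Trbd, 14 Trbj and 2 Trbc genes. All alpha chain segments lay on chromosome 14 and all beta chain segments on chromosome 6.

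The alpha-beta T cell receptor is the antigen sensor of CD8+ T cells. While a T cell matures in the thymus, the RAG recombinase joins a V and a J segment of the alpha locus, and a V, a D and a J segment of the beta locus, and splicing then attaches the constant segment of the chain. Each clone therefore joins its own V and J segments, while every clone shares Trac and uses either Trbc1 or Trbc2. The paper names a total RNA kit for its libraries, so reads of unspliced RNA may also count. The value of a single V or J segment is therefore not read here as a measure of clones.

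RNA of CD8+ T cells from the spleens of C57BL/6 mice was sequenced in 6 libraries of 3 groups with 2 libraries each. The Unstimulated group held cells without stimulation. The Control group was activated for 72 h with antibodies against CD3, the signalling part of the receptor, and CD28, its costimulator, and was kept without magnets. The SMF group had the same 72 h of activation on permanent magnets that gave a static magnetic field (SMF) of 0.3 T. The mice were 8 weeks old and wild type, and the CD8+ T cells had been enriched by a negative-selection kit, so cells of other types could remain. Nothing in the sources used here says that the 2 libraries of a group came from different animals, so the p-values measure the spread between these libraries, which may be technical.

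The file headers name analysis folders with 3 dates, and what happened on these dates is not given in the sources used here. The first libraries of Unstimulated and Control shared a date, their other libraries shared another, and both SMF libraries had a date of their own. As 0 dates held both SMF and Control libraries, the field and whatever differed between the dates cannot be told apart in any comparison with SMF. Levels are given as FPKM, fragments scaled to transcript length and library depth, summed over the transcripts of a gene. Coverage, the mean number of reads over each base, is given beside FPKM because many segments are shorter than a read. For Unstimulated, 67.4 and 132 Mb of mapped bases covered annotated transcripts, for Control 64.4 and 172 Mb, and for SMF 259 and 227 Mb. A coverage of 1 was worth 11.1 and 5.76 FPKM in Unstimulated, 11.9 and 4.61 FPKM in Control, and 3.22 and 3.66 FPKM in SMF.

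The D segments are printed first, because a whole D gene is shorter than any sequencing read and its level is the least certain of all classes. Capitals mark the longest run of G. Trbd1 lies at chr6:41533201-41533212 and Trbd2 at chr6:41542163-41542176 (GRCm38, plus strand, each a single coding exon).
Trbd1: gggacaGGGGGc
Trbd2: gggactGGGGGGGc

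The J segments are printed because each is a single short exon and because several of the calls fell on them. Capitals mark the first match to the 4 consecutive codons TTN, GGN, NNN and GGN, in which N is any base, for the signature of a J segment (phenylalanine or leucine, glycine, any residue, glycine). This motif was found on the coding strand of 46 of 60 Traj genes (76.7%) and 11 of 14 Trbj genes (78.6%), on the opposite strand of 0 of both, and in 1.41% of the first 60 bases of 141243 other transcripts (1.14% on the opposite strand). Of the 14 Traj genes without a match, 7 were annotated as pseudogenes.
Trbj1-3: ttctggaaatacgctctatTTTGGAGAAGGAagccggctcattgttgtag
Trbj1-5: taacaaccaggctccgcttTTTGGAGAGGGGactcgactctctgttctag
Trbj2-2: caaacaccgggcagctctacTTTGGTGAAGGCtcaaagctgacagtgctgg
Trbj2-4: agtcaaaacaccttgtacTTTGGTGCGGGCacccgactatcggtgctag
Traj15: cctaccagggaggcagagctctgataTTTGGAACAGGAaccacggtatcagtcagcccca

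The beta constant genes are printed over the 60 coding bases of exon 3 that differ most. Untranslated bases were left out of this comparison. Capitals mark the 10 bases that differ between Trbc1 (chr6:41539273-41539332) and Trbc2 (chr6:41547816-41547875). Over all 518 coding bases they differed at 23, of which 1 was among the 375 bases of exon 1 and 15 among the 107 bases of exon 3.
Trbc1: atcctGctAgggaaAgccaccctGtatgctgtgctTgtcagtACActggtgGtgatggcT
Trbc2: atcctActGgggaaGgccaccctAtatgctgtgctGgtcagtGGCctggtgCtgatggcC

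Trav13-3 and its copies Trav13d-3 and Trav13n-3 are printed over the first 60 bases of their second exon, because they held the highest Trav levels of the activated libraries. Capitals mark the longest run of C, which has 7 bases in Trav13d-3 (chr14:53033135-53033194) and Trav13n-3 (chr14:53337355-53337414) and 6 in Trav13-3 (chr14:53729791-53729850), annotated as a pseudogene. Beside this missing base, the only difference over 337 bases counted from the start codon was T264C, with the base of Trav13d-3 first and that of Trav13n-3 last.
Trav13d-3: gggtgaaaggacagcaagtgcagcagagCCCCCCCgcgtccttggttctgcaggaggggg
Trav13n-3: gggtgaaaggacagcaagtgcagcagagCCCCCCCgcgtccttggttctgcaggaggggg
Trav13-3: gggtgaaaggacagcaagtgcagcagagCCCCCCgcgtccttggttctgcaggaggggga

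Of the 242 segments, 161 had a value above 0 in at least 1 library and 81 were listed at 0 in all 6. Only 15 were above 0 in every library, namely Trac, both Trbc genes, 7 Trbv, 4 Trbj and 1 Trav gene. Unstimulated had 48 and 84 above 0, Control 45 and 82, and SMF 81 and 86, and the 2 shallowest libraries listed the fewest. For testing, a gene had to average 1 FPKM or more across the libraries, which 109 segments did (41 Trav, 28 Traj, 1 Trac, 21 Trbv, 2 Trbd, 14 Trbj and 2 Trbc). Of these 109, 60 had a group that was at 0 in both of its libraries, and 30 were above 0 in 1 group alone, so such segments entered the test through the group where they were high.

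Together the segments took 0.0486% and 0.0581% of the mapped bases on annotated transcripts in Unstimulated. They took 0.0482% and 0.0497% in Control, and 0.1% and 0.0862% in SMF. Their summed level was 1136 and 1221 FPKM in Unstimulated, 977 and 1007 FPKM in Control, and 1882 and 1743 FPKM in SMF. By both measures the SMF libraries lay above the other 4. Control and Unstimulated overlapped in the share of mapped bases on annotated transcripts, whereas in summed FPKM Control lay just below Unstimulated. In such bulk samples, fewer cells of a type and less RNA per cell cannot be told apart.

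The constant genes, shared by all clones, are given first. Trac (chr14:54220521-54224206), the only constant gene of the alpha chain, stood at 136 and 152 FPKM in Unstimulated, 78.3 and 125 FPKM in Control, and 202 and 225 FPKM in SMF, with coverages between 6.57 and 63.0. Trbc1 (chr6:41538218-41539881) stood at 85.1 and 101 FPKM in Unstimulated, 67.6 and 91.6 FPKM in Control, and 176 and 151 FPKM in SMF. Trbc2 (chr6:41546730-41548352), the constant gene of the second beta cluster, stood at 104 and 123 FPKM in Unstimulated, 92.4 and 93.4 FPKM in Control, and 329 and 310.1 FPKM in SMF. All 3 were highest in both SMF libraries, and Control and Unstimulated overlapped for Trbc1 alone.

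Between Control and Unstimulated, none of the 3 constant genes was called, where a call in limma required a fold of 2 or more together with an unadjusted p no higher than 0.05. On the log2(FPKM + 1) scale the differences were -0.54 (SE 0.29, adjusted p = 0.302) for Trac, -0.23 (SE 0.27, adjusted p = 0.627) for Trbc1 and -0.28 (SE 0.22, adjusted p = 0.463) for Trbc2. The fit held no term for the date. Within each of the pairs that shared a date, all 3 genes were lower in the Control library. Between SMF and Control all 3 were called higher, by 1.10 (SE 0.29, adjusted p = 0.159) for Trac, 1.04 (SE 0.27, adjusted p = 0.155) for Trbc1 and 1.77 (SE 0.22, adjusted p = 0.125) for Trbc2. None of these adjusted p-values, taken over the 14991 genes tested, was under 0.05, and the median over all genes was 0.32 on the same scale. Scaled to 1 common median per library, Trac differed by 0.76 and Trbc1 by 0.70, both under the fold needed for a call, and Trbc2 kept its call. The calls of Trac and Trbc1 were also lost without Control replicate 1 (0.77 and 0.83), that of Trac without SMF replicate 2 (1.03), and that of Trbc1 without SMF replicate 1 (0.93).

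**Figure D1:**
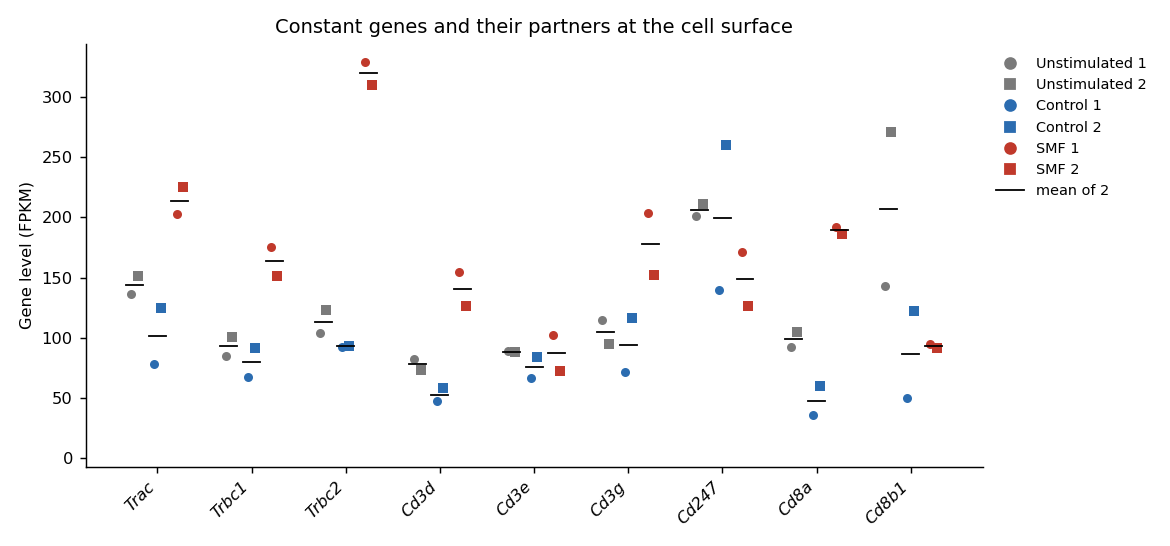
Level (FPKM, linear axis from 0) of the 3 constant genes and of 6 genes of the CD3 and CD8 proteins in each of the 6 libraries. Circles are first and squares second libraries, and bars are means of 2. Trbc2 reached 329 and 310.1 FPKM in the SMF libraries and 123 FPKM or less in the other 4.

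The use of the beta constant genes also differed between libraries. The ratio of Trbc2 to Trbc1 FPKM was 1.22 in both Unstimulated libraries, 1.37 and 1.02 for Control, and 1.87 and 2.05 for SMF. Exon 3, where 15 of 107 coding bases differ, gave on the FPKM scale 211 and 188 for Trbc2 against 133 and 125 for Trbc1 in Unstimulated. In Control the exon stood at 175 and 124 for Trbc2 against 52.9 and 80.5 for Trbc1, and in SMF at 493 and 494 against 216 and 139. Trbc2 exceeded Trbc1 at this exon in all 6 libraries. Exon 4 went the other way in Unstimulated, at 107 and 116 for Trbc1 against 89.9 and 114 for Trbc2. In Control it stood at 60.7 and 103 for Trbc1 against 60.7 and 71.8, and in SMF Trbc2 was higher. At exon 2 Trbc1 was higher in Unstimulated replicate 1 (166 against 147) and Control replicate 2 (139 against 103). The ratio of Trac to the summed Trbc genes was 0.722 and 0.677 in Unstimulated, 0.489 and 0.675 in Control, and 0.401 and 0.488 in SMF. These ratios were not tested and are descriptions.

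The class sums of the alpha chain differed in direction between Unstimulated and activated libraries. The Trav sum was 94.6 and 142 FPKM in Unstimulated, 286 and 268 FPKM in Control, and 388 and 275 FPKM in SMF. The Traj sum was 164 and 142 FPKM in Unstimulated, 52.7 and 51.2 FPKM in Control, and 87.3 and 64.7 FPKM in SMF. Trav was therefore lowest and Traj highest in the Unstimulated libraries, without overlap with either activated group. The log2 ratio of the group means, Control over Unstimulated, was 1.23 for Trav and -1.56 for Traj, against -0.50 for Trac. All Traj together rested on 280 to 1540 mapped bases per library, against 3353 to 44609 for all Trav.

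For the beta chain, the V, J and constant classes are given in turn. The Trbv sum was 219 and 321 FPKM in Unstimulated, 206 and 221 FPKM in Control, and 472 and 368 FPKM in SMF. The Trbj sum was 321 and 232 FPKM in Unstimulated, 171 and 157 FPKM in Control, and 223 and 340.0 FPKM in SMF. The Trbc sum was 189 and 224 FPKM in Unstimulated, 160.0 and 185 FPKM in Control, and 505 and 461 FPKM in SMF. The log2 ratios of Control over Unstimulated were -0.34 for Trbv, -0.76 for Trbj and -0.26 for Trbc. Divided by the summed CD3 and CD8 genes, the direction turned for Trbv (0.26) and Trbc (0.31), and Trac came to 0.0014. That turn rested on Control replicate 1, without which Trbv was at -0.11 and Trbc at 0.0022. Trbj on this scale was at -0.69 without Control replicate 1 and at 0.21 without Control replicate 2. The corresponding ratios of SMF over Control were 0.98 for Trbv, 0.78 for Trbj and 1.49 for Trbc, and 1.07 for Trac, 0.26 for Trav and 0.55 for Traj. With libraries scaled to 1 common median, Trav turned to -0.08 and Traj came to 0.21. Groups of SMF and Control did not overlap for any class but Trav and Trbd.

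**Figure D2:**
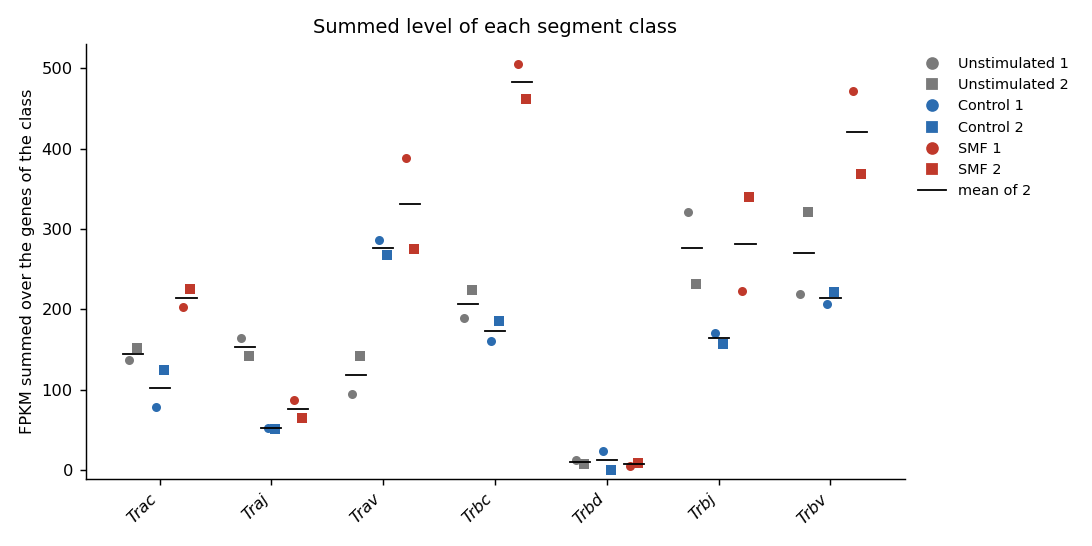
FPKM summed over the genes of each segment class (linear axis from 0) in the 6 libraries, with circles for first and squares for second libraries and bars for means of 2. Trav was at 142 FPKM or less in the Unstimulated libraries and at 268 FPKM or more in the activated libraries, whereas Traj was at 142 FPKM or more before and 87.3 FPKM or less after activation.

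Most of the Trav difference between Unstimulated and Control lay in Trav13-3 and its copies. Trav13d-3 was listed at 0 in both Unstimulated libraries and stood at 84.3 and 61.4 FPKM in Control and 101 and 51.7 FPKM in SMF. Trav13-3 was at 0 in Unstimulated, 40.9 and 45.3 FPKM in Control, and 45.1 and 24.7 FPKM in SMF. Trav13n-3 was at 0 in Unstimulated, 47.4 and 28.5 FPKM in Control, and 45.4 and 25.3 FPKM in SMF. Each copy thus separated the Unstimulated from the activated libraries completely, and SMF and Control overlapped for all 3.

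The 3 copies were called higher in Control than in Unstimulated, with limma adjusted p-values of 0.00577 for Trav13d-3, 0.00708 for Trav13-3 and 0.00716 for Trav13n-3, and they kept the call in all 13 alternatives. They were tested only through the activated groups, and since near-identical copies can share reads, their p-values are not separate support. In SMF against Unstimulated, which shares the Unstimulated libraries, the adjusted p-values were 0.00302, 0.0034 and 0.0041, in the same order. No fold is given, since the Unstimulated libraries list all 3 at 0. Together the copies made up 60.4% and 50.4% of the Trav sum in Control and 49.3% and 37.0% in SMF. The sum of the other 125 Trav genes was 94.6 and 142 FPKM in Unstimulated, 113 and 133 FPKM in Control, and 197 and 173 FPKM in SMF, so Unstimulated and Control overlapped without the copies.

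**Figure D3:**
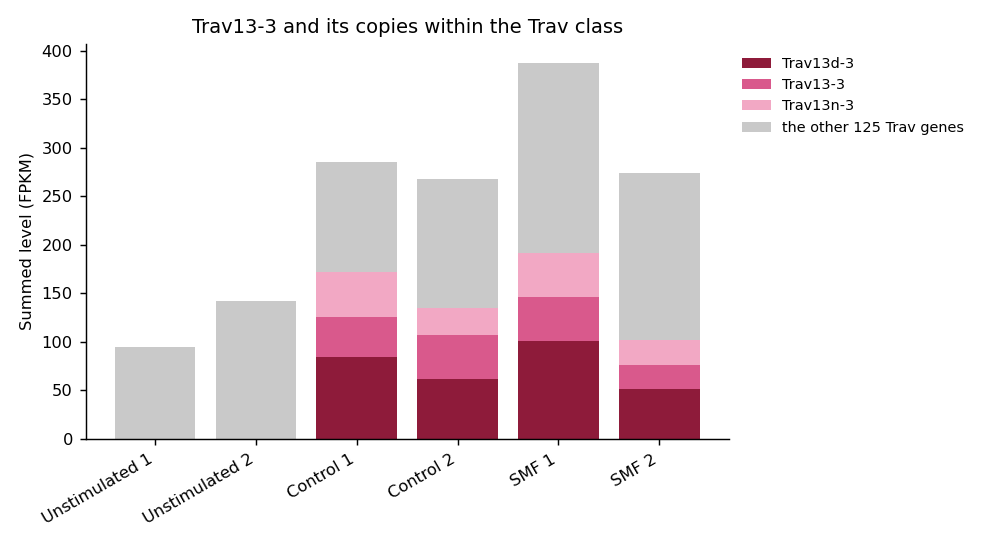
Stacked FPKM (linear axis from 0) of Trav13-3, Trav13d-3, Trav13n-3 and the other 125 Trav genes in each library. The 3 copies add 0 FPKM in the Unstimulated libraries and between 102 and 191 FPKM in the activated libraries.

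The 3 copies cannot be separated with confidence, since Trav13d-3 shared 99.7% of 337 bases with each of the other two. Their coverage had an uncommon form. Both exons had the same coverage in every deposited decimal in both Control libraries and SMF replicate 1 for Trav13-3, in both Control libraries for Trav13d-3, and in Control replicate 2 and both SMF libraries for Trav13n-3. By the same measure, transcripts with equal exons made up between 0.093% and 0.235% per library of all transcripts with several exons and a value above 0. Antisense genes overlapped 2 of the copies, namely Gm30214 at Trav13d-3 (0 to 2.78 FPKM) and Gm43650 at Trav13n-3 (0 to 4.85 FPKM). The part of the read assignment in these values was not tested.

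Other Trav genes were low and irregular. Trav16n was the only Trav gene above 0 in all 6 libraries, at 15.2 and 12.4 FPKM in Unstimulated, 10.3 and 6.46 FPKM in Control, and 8.30 and 21.6 FPKM in SMF. Trav3-3 was at 9.10 and 0 FPKM in Unstimulated, 0 and 5.78 FPKM in Control, and 33.7 and 12.7 FPKM in SMF. Trav7-5 was at 0 in Unstimulated, 29.0 and 4.09 FPKM in Control, and 10.0 and 0 FPKM in SMF, and it was called higher in Control than in Unstimulated (adjusted p = 0.145). Trav16 was at 0 in Unstimulated, 0 and 5.76 FPKM in Control, and 24.5 and 7.84 FPKM in SMF, and it was called higher in SMF than in Control by 2.53 on the log2 scale (SE 1.03, adjusted p = 0.235). The call of Trav7-5 was lost without Control replicate 1 and without either Unstimulated library, and that of Trav16 in every alternative but the one without Control replicate 2. Of the 128 Trav genes, 88 had another gene at 97% identity or more over at least 90% of their length, against 1 of 35 Trbv genes, so the reads of single Trav genes are uncertain.

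The V segments of the beta chain hold the antigen-binding loops encoded in the germline. Trbv13-2 (chr6:41121396-41121832) was at 23.7 and 47.3 FPKM in Unstimulated, 36.7 and 31.0 FPKM in Control, and 76.6 and 72.6 FPKM in SMF. Trbv29 (chr6:41271394-41271881) was at 22.4 and 22.9 FPKM in Unstimulated, 37.5 and 39.4 FPKM in Control, and 76.9 and 85.5 FPKM in SMF. Trbv12-1 was at 5.78 and 5.00 FPKM in Unstimulated, 8.49 and 17.3 FPKM in Control, and 41.8 and 34.0 FPKM in SMF. For Trbv29 and Trbv12-1 the 3 groups stood in the same order without overlap, Unstimulated lowest and SMF highest.

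Against Control, these genes were called higher in SMF by 1.12 (SE 0.39, adjusted p = 0.195) for Trbv13-2, 1.06 (SE 0.27, adjusted p = 0.151) for Trbv29 and 1.55 (SE 0.44, adjusted p = 0.168) for Trbv12-1 on the log2(FPKM + 1) scale. The call of Trbv13-2 was lost with any 1 of the SMF or Control libraries left out and with 1 common median (0.78), that of Trbv29 without SMF replicate 2 (0.98) and with 1 common median (0.71), and that of Trbv12-1 without SMF replicate 1 (1.41). The other abundant genes stood in other orders. Trbv12-2 was at 34.4 and 92.6 FPKM in Unstimulated, 13.2 and 37.7 FPKM in Control, and 55.5 and 27.7 FPKM in SMF. Trbv16 was at 60.4 and 29.5 FPKM in Unstimulated, 30.3 and 7.69 FPKM in Control, and 37.1 and 39.0 FPKM in SMF. Trbv3 was at 45.9 and 14.8 FPKM in Unstimulated, 33.3 and 13.3 FPKM in Control, and 35.3 and 22.9 FPKM in SMF. For Trbv12-2 and Trbv3 all 3 groups overlapped. Trbv14 was the 1 Trbv gene called lower in SMF, at 7.55 and 9.23 FPKM in Control and 0 and 3.49 FPKM in SMF (-2.14, SE 0.79, adjusted p = 0.212), a call that was lost with any 1 library left out except SMF replicate 2.

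Trbv use was compared across libraries by correlation over genes. Across the 35 Trbv genes, Pearson's r of log2(FPKM + 1) lay between 0.65 and 0.83 for the 3 pairs of libraries of 1 group, and between 0.61 and 0.83 for the 12 pairs from different groups. For Trbv the range within groups and the range across groups nearly coincided. For the 128 Trav genes r lay between 0.38 and 0.70 within groups and between 0.0060 and 0.64 across groups. For the 60 Traj genes it lay between -0.020 and 0.17 within groups and between -0.082 and 0.35 across groups. For the 14 Trbj genes r was 0.728 between the Unstimulated, 0.064 between the Control and 0.035 between the SMF libraries. Across groups it lay between 0.145 and 0.549 for Trbj. These points share libraries and differ in length and copy number, and the values are descriptions only. In share of the Trbv sum, Trbv13-2 held 15.5% and Trbv29 15.5% on average over the 6 libraries. Trbv29 held 10.2% and 7.12% in Unstimulated, 18.2% and 17.8% in Control, and 16.3% and 23.2% in SMF, so both activated groups lay above the Unstimulated libraries.

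**Figure D4:**
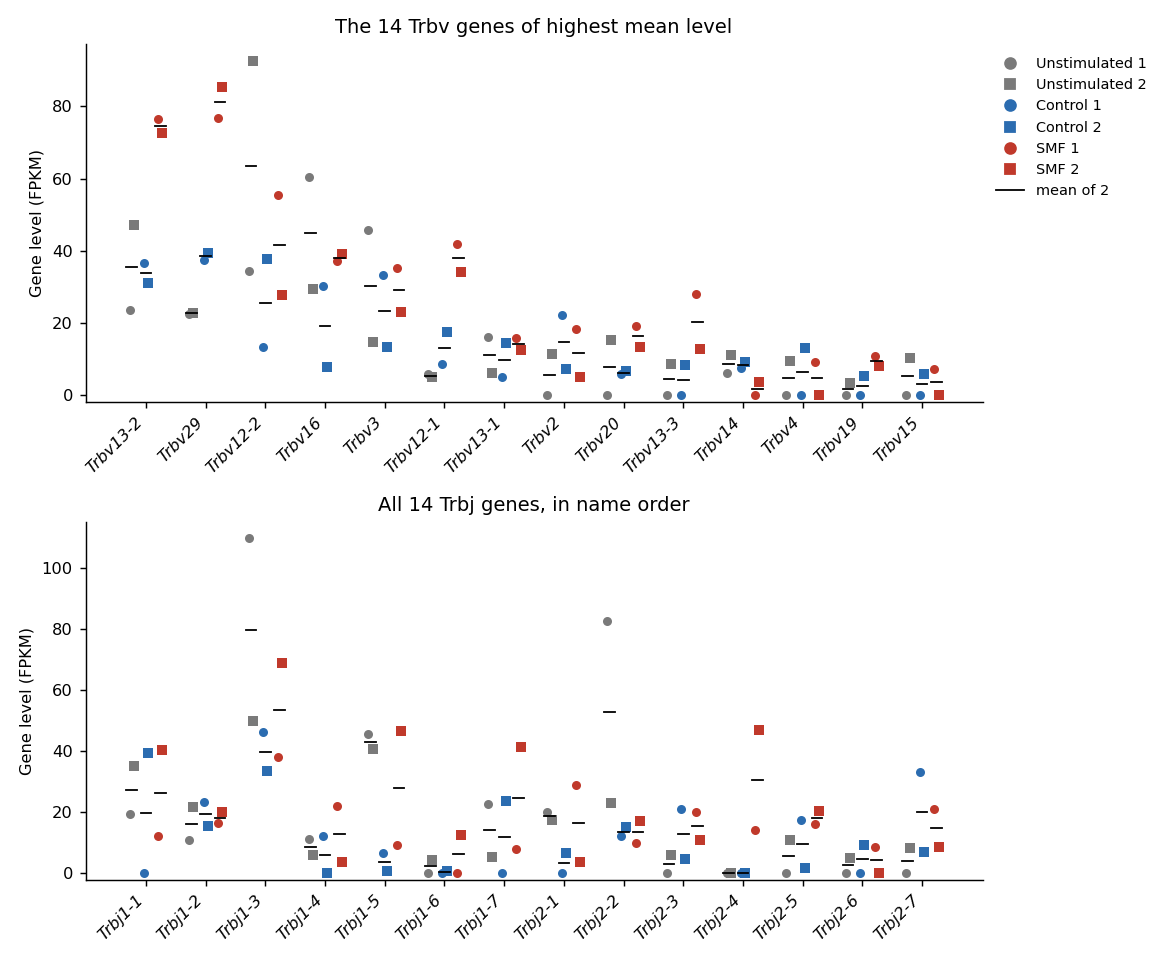
Level (FPKM, linear axes from 0) of the 14 Trbv genes of highest mean and of all 14 Trbj genes in the 6 libraries, with circles for first and squares for second libraries and bars for means of 2. Trbv29 shows close replicates and separate groups, whereas Trbj1-3 ranges from 33.4 to 110 FPKM with large gaps between replicates.

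The J segments rested on few reads. Over the 6 libraries, 141 values of Traj and Trbj transcripts were above 0, with a median coverage of 1.44, and 39 of them (27.7%) were whole numbers within 0.005, against 4 of 289 (1.38%) V transcript values. Trbj1-3, the most abundant Trbj gene, was at 110 and 49.9 FPKM in Unstimulated, 46.2 and 33.4 FPKM in Control, and 38.2 and 68.9 FPKM in SMF, with coverages between 3.88 and 18.9. It had the highest share of the Trbj sum in 5 of 6 libraries, and in Control replicate 2 Trbj1-1 had it, at 39.2 FPKM.

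Trbj1-5 was at 45.4 and 40.6 FPKM in Unstimulated, 6.61 and 0.645 FPKM in Control, and 9.13 and 46.7 FPKM in SMF. It was called lower in Control than in Unstimulated by -3.64 (SE 0.95, adjusted p = 0.0699) and higher in SMF than in Control by 2.64 (SE 0.95, adjusted p = 0.207), and the 2 SMF libraries differed by more than the 2 Unstimulated libraries did. Without Control replicate 2 both calls were lost, at -2.53 and 1.53, as they were without either Unstimulated library, and the call against SMF was lost without SMF replicate 2, at 1.52. Trbj2-2 was at 82.5 and 23.0 FPKM in Unstimulated, 11.9 and 15.0 FPKM in Control, and 9.65 and 17.1 FPKM in SMF. Its call against Control (-1.64, SE 0.64, adjusted p = 0.168) fell to -0.74 without Unstimulated replicate 1, which held the highest value, and was lost in most other alternatives.

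Trbj2-4 was listed at 0 in all 4 Unstimulated and Control libraries and stood at 13.9 and 46.7 FPKM in SMF, at coverages of 4.33 and 12.8. It was called higher in SMF than in Control (adjusted p = 0.136), but it was tested only through SMF, and in the shallowest library, Control replicate 1, a coverage of 1 would already be 11.9 FPKM. By cluster, the Trbj1 genes summed to 219 and 162 FPKM in Unstimulated, 87.9 and 113 FPKM in Control, and 105 and 233 FPKM in SMF. The Trbj2 genes, which lie next to Trbc2, summed to 103 and 69.6 FPKM, 83.1 and 43.7 FPKM, and 117 and 107 FPKM. The SMF libraries were highest in Trbj2, without overlap. Without Trbj2-4 the SMF libraries summed to 104 and 60.2 FPKM and all 3 groups overlapped. For Trbj1 the Control libraries lay below the Unstimulated libraries, and SMF overlapped both.

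Single Traj genes appeared and vanished between replicates. Traj50 was at 44.3 FPKM in Unstimulated replicate 1, at a coverage of 4, and listed at 0 in the other 5 libraries. Traj4 was at 41.6 FPKM in Control replicate 1, which was 78.9% of the Traj sum of that library, and at 3.84 and 3.66 FPKM in Unstimulated replicate 2 and SMF replicate 2. Traj15 was at 28.4 FPKM in Unstimulated replicate 2 and at 19.3 and 7.31 FPKM in SMF, and it was listed at 0 in both Control libraries and called higher in SMF (adjusted p = 0.235). Traj12 was at 14.3 FPKM in Unstimulated replicate 2, 13.2 FPKM in Control replicate 2 and 6.27 FPKM in SMF replicate 1. Traj13 reached 18.3 FPKM in SMF replicate 2. The call of Traj15 was lost with any 1 SMF or Control library left out.

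The D segments were at or below a coverage of 1.65. Trbd1 was at 12.7 and 0 FPKM in Unstimulated, 11.9 and 0 FPKM in Control, and 0 and 3.37 FPKM in SMF. Trbd2 was at 0 and 7.95 FPKM in Unstimulated, 11.9 and 0 FPKM in Control, and 4.61 and 6.02 FPKM in SMF. No difference between groups was detectable at this depth.

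Segments of invariant T cells were low or listed at 0 in most libraries. Trav11 and Traj18 form the alpha chain of the receptor of invariant natural killer T cells. Trav11 was listed at 0 in all 6 libraries, as was Zbtb16, the defining transcription factor of these cells, while Traj18 was at 44.3 and 3.69 FPKM in Unstimulated, 0 and 9.22 FPKM in Control and 0 in both SMF libraries. Trav1 and Traj33 form the alpha chain of the receptor of mucosal-associated invariant T cells. Trav1 was above 0 in Control replicate 2 alone (8.95 FPKM) and Traj33 in SMF replicate 1 alone (3.22 FPKM).

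Counted over all tested segments, 5 were called higher and 5 lower in Control than in Unstimulated, which is 4.59% of 109 in each direction, against 12.3% of all genes called higher and 12.6% called lower. Both shares were below the background here, and 8 of the 10 calls had a group at 0. The split depended on single libraries, with 10 higher and 4 lower without either Control library, 4 higher and 12 lower without Unstimulated replicate 1, and 8 higher and 10 lower without Unstimulated replicate 2. In SMF against Control 19 were called higher and 3 lower (17.4% and 2.75%), against 12.5% and 5.72% of all genes, and 12 of the 22 had a group at 0. With libraries scaled to 1 common median, 11 were called higher and 3 lower, and the median log2 difference over all genes moved from 0.32 to -0.02. All-gene shares for this scaling, and for the fits with a library left out, are not given here. Those counts therefore have no background beside them. In SMF against Unstimulated 19 were called higher and 6 lower (17.4% and 5.50%), against 22.4% and 14.8% of all genes, and 17 of the 25 had a group at 0. The lower calls became 10 without either Unstimulated library, 3 without SMF replicate 1 and 4 without either Control library, and those of SMF against Control became 5 without Control replicate 2 and 2 without any 1 of the SMF or Unstimulated libraries. After adjustment over all genes, 4, 0 and 17 of the 109 segments had a p under 0.05 in these comparisons, where 8.48%, 0.0267% and 23.6% of all genes did. The 4 were the Trav13-3 copies and Traj24, which was at 11.1 and 7.01 FPKM in Unstimulated and listed at 0 in all activated libraries (adjusted p = 0.0278), and which was named after its value was seen. Its coverage in Unstimulated was 1.0 and 1.22, or 63 and 76.8 mapped bases, and it was tested only through that group, so its absence elsewhere is not established at this depth. The 19 higher calls of SMF against Control comprised 7 Trav, 2 Traj, Trac, 5 Trbv, 2 Trbj and both Trbc genes.

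The partners of the receptor were read from the same fit. Of the 6 genes of the CD3 chains (Cd3d, Cd3e, Cd3g, Cd247) and the CD8 coreceptor (Cd8a, Cd8b1), 0 were called higher and 2 lower in Control than in Unstimulated, and 2 higher and 0 lower in SMF than in Control, beside all-gene shares of 12.3% and 12.6%, and of 12.5% and 5.72%. Their median log2 differences were -0.40 and 0.59, against -0.05 and 0.32 over all genes. Cd8a was at 92.5 and 105 FPKM in Unstimulated, 35.5 and 59.98 FPKM in Control, and 192 and 186 FPKM in SMF (-1.08, SE 0.31, adjusted p = 0.0884, and 2.01, SE 0.31, adjusted p = 0.136). The first of these Cd8a calls was lost without either Unstimulated library, without Control replicate 1 (-0.71) and with 1 common median. The other lower call was Cd8b1, at 143 and 271 FPKM in Unstimulated and 50.3 and 123 FPKM in Control (-1.31, SE 0.50, adjusted p = 0.157), and it was lost with any 1 library left out except Control replicate 2. Cd3d was at 82.5 and 73.4 FPKM, 47.5 and 58.0 FPKM, and 155 and 126 FPKM, and was called higher in SMF than in Control by 1.40 (SE 0.26, adjusted p = 0.136). Cd247 was at 140 and 260 FPKM in Control and 171 and 126 FPKM in SMF, where the groups overlapped and no call was made. Divided by the sum of these 6 genes, the SMF over Control log2 ratio was 0.83 for Trbc, 0.49 for Trac, 0.29 for Trbv, 0.11 for Trbj, -0.16 for Traj and -0.46 for Trav. On this scale Trav was at 0.696 and 0.382 in Control and 0.422 and 0.364 in SMF. Traj was at 0.129 and 0.073 in Control and 0.095 and 0.0857 in SMF. The negative ratios of Trav and Traj therefore rested on Control replicate 1. SMF and Control also overlapped for Trbv and Trbj.

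The recombination genes Rag1 and Rag2 and the surrogate alpha chain gene Ptcra, active in the thymus, were listed at 0 in all 6 libraries. Dntt, the enzyme that adds bases at the joints, was at 4.96 FPKM in Unstimulated replicate 1 and 2.51 FPKM in Control replicate 1 and at 0 elsewhere. Of 6 transcription factors that bind the receptor enhancers, 4 were called lower and 1 higher in Control than in Unstimulated, where 12.6% and 12.3% of all genes were. In SMF against Control 0 of the 6 were called, where 12.5% of all genes were called higher and 5.72% lower. Lef1 was at 79.0 and 80.1 FPKM in Unstimulated, 19.7 and 22.1 FPKM in Control, and 19.4 and 20.4 FPKM in SMF (Control against Unstimulated -1.88, SE 0.28, adjusted p = 0.0190). Ets1 fell by 1.33 (SE 0.29, adjusted p = 0.0451) and Tcf7 by 2.15 (SE 0.49, adjusted p = 0.0508), whereas Runx3 rose by 1.51 (SE 0.49, adjusted p = 0.114). The calls of Lef1 and Ets1 held in all 13 alternatives, and those of Tcf7, Runx1 and Runx3 were lost without Control replicate 1. The 4 factors called lower in Control, which were Tcf7, Lef1, Ets1 and Runx1, were also called lower in SMF than in Unstimulated. That comparison shares the Unstimulated libraries, and 14.8% of all genes were called lower in it.

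Of the 16 gamma and delta chain segments, 12 were listed at 0 in all libraries, 4 were tested, and 3 were called lower in Control than in Unstimulated (Trdc, Trdv5 and Trdv2-2), where 12.6% of all genes were. Trdv5 and Trdv2-2 were at 1.85 FPKM or less in the activated libraries and were tested through Unstimulated. Trdc was at 8.52 and 8.17 FPKM in Unstimulated, 0.856 and 2.20 FPKM in Control, and 1.89 and 1.08 FPKM in SMF. Among 10 further gamma genes named Tcrg, 6 were listed at 0 throughout. In Control against Unstimulated 0 of the 3 tested were called, where 12.3% of all genes were called higher and 12.6% lower. The 3 genes are too few to set against these shares.

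Markers of other cells were read as whole lists. Beside them, 12.6% of all genes were called lower and 12.3% higher in Control than in Unstimulated. For SMF against Control the all-gene shares were 12.5% higher and 5.72% lower. The summed FPKM of 8 B cell markers, led by Ighm, was 423 and 478 in Unstimulated, 55.8 and 50.1 in Control, and 76.7 and 69.0 in SMF, and all 8 were called lower in Control. In SMF against Control, Ighm was called higher, at 25.0 and 36.9 FPKM in Control and 68.5 and 65.1 FPKM in SMF, and Cd79a and Igkc were called lower (limma adjusted p = 0.159, 0.151 and 0.141). The 6 myeloid markers, led by Csf1r, summed to 140.4 and 156 FPKM, 47.0 and 53.8 FPKM, and 47.5 and 51.4 FPKM, and 4 of them were called lower in Control. Csf1r was not called and made up nearly all of the activated sums, at 47.0 and 53.8 FPKM in Control and 41.1 and 50.4 FPKM in SMF, while Lyz2 and Adgre1 were at 0 in the 4 activated libraries. Cd68 was at 0 in Control and at 6.41 and 0.892 FPKM in SMF, and was called higher in SMF (adjusted p = 0.228). The 4 natural killer markers summed to 17.8 and 7.66 FPKM in Unstimulated and 0 in the others. The 4 CD4 T cell markers, led by Foxp3, summed to 31.2 and 14.5 FPKM, 12.8 and 22.8 FPKM, and 12.8 and 13.5 FPKM, with Cd4 itself at 4.68 FPKM or less and 1 of the 4 called lower in Control, and these sums overlapped between Unstimulated and Control. The 6 erythroid markers, led by Alas2, summed to 21.8 FPKM or less in each library, and 0 of them were called in Control against Unstimulated in limma, with Alas2 at -1.36 (SE 0.73, adjusted p = 0.298). The 7 CD8 T cell markers, led by Thy1, were above 0 in all 6 libraries and summed to 710 and 849 FPKM, 431 and 644 FPKM, and 997 and 975 FPKM, so Control replicate 1 was lowest here as it was for Trac and both Trbc genes. The part of cell composition in the segment values was not tested.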

How the data were processed

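RNA-seq of 6 libraries was analysed. The authors trimmed reads with Trimmomatic 0.36, aligned them with HISAT2 and quantified annotated transcripts with StringTie 1.3.5 on GRCm38 (GENCODE M19), per the file headers and the submitters' processing notes. The deposited files give FPKM and TPM, normalised for depth and length, and coverage, which is not. Joints between rearranged segments are absent from the genome, so reads across them may be lost. FPKM was summed per gene. log2(FPKM + 1) of the 14991 genes averaging 1 FPKM or more was fitted with limma 3.58.1 (trend, 3 groups, R 4.3.3), with Benjamini-Hochberg adjustment over all of them. Identities came from blastn 2.17.0 on GENCODE M21 transcripts (GRCm38), where all 242 members matched, and overlaps from bedtools 2.31.1. The scripts were tested on simulated data. Members, lists and tests were chosen with earlier results of these data known.

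Named were the constant, D and invariant segments, the 6 Trav, 6 Traj, 6 Trbv and 5 Trbj genes of highest mean FPKM, and up to 5 rises and 5 falls of each of the first 2 comparisons among called members with a mean of at least 5 FPKM whose groups did not overlap. Alternatives were another pseudocount (0.1), other filters, TPM, scaling, no trend, the replicate block and each library left out. A further deposited table was not used, as its 3 value columns matched no sample. Trgc1, Trgc2 and Trgc4 of the gamma delta marker list carried other symbols and were not matched, and Sox13 was at 0 in all libraries. The level of 1 marker gene is not reported here.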

Additional observations from a re-analysis of the deposited data

How the results depend on the processing

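Segments called numbered 10 (Control against Unstimulated), 22 (SMF against Control) and 25 (SMF against Unstimulated). With a mean of at least 5 FPKM they numbered 6, 9 and 12, as fewer genes were tested, and with libraries scaled to 1 median SMF against Control gave 14 (11 higher and 3 lower). Leaving out 1 library gave 10 to 18, 17 to 26 and 22 to 30, with 18 without Unstimulated replicate 2 and 16 without Unstimulated replicate 1. With the replicate block the counts were 12, 21 and 25. All-gene shares for these alternatives are not given here. Replicate numbers match shared folder dates for Unstimulated and Control only, and deviations of same-numbered libraries correlated at 0.10, 0.03 and 0.02, which is not above 0.1. Divided by the CD3 and CD8 genes, Control over Unstimulated log2 ratios became 1.85 (Trav), -0.97 (Traj), 0.0014 (Trac), 0.26 (Trbv), -0.17 (Trbj) and 0.31 (Trbc), so Trac, Trbv and Trbc changed sign, Trac to a value near 0. Chosen after seeing the data, the same ratios without Control replicate 1 were 1.35 (Trav), -1.44 (Traj), -0.05 (Trac), -0.11 (Trbv), -0.69 (Trbj) and 0.0022 (Trbc). Without Control replicate 2 they were 2.22, -0.62, 0.05, 0.55, 0.21 and 0.56 in the same order, so Trbj changed sign there. Divided in the same way, the SMF over Control ratios became -0.46, -0.16, 0.49, 0.29, 0.11 and 0.83, and Trav and Traj changed sign. These sign changes rested on Control replicate 1, and SMF and Control overlapped for both classes. Scaled to 1 median, SMF over Control was 0.21 (Traj), 0.63 (Trbv), 1.15 (Trbc) and -0.08 (Trav, which changed sign). TPM moved no class by more than its replicate spread. With 1 library left out, Control over Unstimulated ranged from 0.96 to 1.55 (Trav), -1.66 to -1.46 (Traj), -0.88 to -0.20 (Trac), -0.59 to -0.034 (Trbv), -0.97 to -0.50 (Trbj) and -0.38 to -0.13 (Trbc), and SMF over Control from -0.011 to 0.49 (Trav), 0.32 to 0.75 (Traj), 0.77 to 1.45 (Trac), 0.78 to 1.14 (Trbv), 0.44 to 1.05 (Trbj) and 1.38 to 1.59 (Trbc). The Trav share of Trav13d-3, 0% in Unstimulated and 18.8% to 29.5% in activated libraries, averaged 16.2% over the 6 libraries, and that of the whole Trav13 subgroup 36.8%. By covered bases the leading shares moved by less than the replicate spread. Depth limits short segments, as J transcripts above 0 had a median coverage of 1.44. The causes of these shifts were not tested.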

Other observations

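Pseudogenes contributed to the alpha chain classes. Of 43 segments annotated as pseudogenes 13 were above 0 in at least 1 library. Those of the Trav class held 20.3% and 16.9% of the Trav sum in Control and 11.6% and 8.99% in SMF, mostly through Trav13-3, against 5.62% and 0% in Unstimulated. Among Traj, pseudogenes held 11.1% and 11.3% of the sum in the SMF libraries, 0% in both Control libraries, and 0% and 3.92% in Unstimulated.

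The Trav genes of the duplicated part of the alpha locus, marked d and n in their names, are given apart, as they include Trav13d-3 and Trav13n-3. The 39 d copies summed to 19.8 and 36.1 FPKM in Unstimulated, 110 and 90.2 FPKM in Control, and 123 and 80.9 FPKM in SMF, and the 34 n copies to 46.5 and 31.5 FPKM, 78.1 and 59.4 FPKM, and 75.7 and 70.6 FPKM. Without Trav13d-3 the d copies summed to 25.3 and 28.8 FPKM in Control and 22.1 and 29.2 FPKM in SMF, within the Unstimulated values, and without Trav13n-3 the n copies summed to 30.7 and 30.9 FPKM in Control and 30.3 and 45.4 FPKM in SMF. Several such copies had the same values within 1% in all 6 libraries, among them Trav3d-3 and Trav3n-3, and Trav7-2 and Trav7d-2, which were named after their values were seen.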
